A study of Homo sapiens with 8 samples.

Results

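The 35 genes described here encode enzymes that take apart the carbon skeletons of leucine, isoleucine and valine, the branched-chain amino acids (BCAAs), once these have lost their amino group and been oxidatively decarboxylated. The genes were chosen by the reaction their products catalyze, by symbol and with no threshold on a measured value, although earlier results of these data were known, and were sorted by reaction into a leucine branch (6 genes), an isoleucine branch (3), a valine branch (5), a propionate branch (6), acyl-CoA oxidation steps shared with fatty acids (8), and aldehyde and amine steps (7). All 35 of 35 were found by Ensembl identifier among the 25431 genes listed for 769-P cells and the 24190 listed for CAKI-1 cells, and MMUT was matched by its identifier because older annotation calls it MUT. The set is mitochondrial in the main. AACS, ALDH9A1 and AOX1 are known as cytosolic enzymes, EHHADH and ACAA1 as peroxisomal ones and ALDH3A2 as an enzyme of the endoplasmic reticulum.

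Both lines are established human renal cell carcinoma (RCC) lines from ATCC that the labels describe as clear cell carcinoma cells. 769-P was kept in RPMI and CAKI-1 in MEM. Each line was then held for 16 hours either with BCAAs, that is leucine (0.38 mM), isoleucine (0.38 mM) and valine (0.17 mM), or without them, and 2 libraries were made per line and condition (8 in all). Per the methods of the study, its BCAA-depleted medium was an RPMI powder made without amino acids plus dialyzed serum, and the sources used here do not state whether the other amino acids were added back. The legend of the study for these data gives another number of replicates than the 2 libraries per condition analysed here. The labels do not say that the 2 libraries of a condition came from separate cultures, so every p-value measures only the spread between these libraries. Each line is 1 cell population, and the lines differ in more than their origin, including the medium in which they were maintained.

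In BCAA catabolism, a transaminase turns each amino acid into its ketoacid and the branched-chain ketoacid dehydrogenase commits it to breakdown. What follows resembles fatty acid oxidation, with dehydrogenation by flavin enzymes that pass electrons to the electron transfer flavoprotein, hydration, another oxidation and cleavage. Leucine ends as acetyl-CoA and acetoacetate, valine as propionyl-CoA, and isoleucine as both acetyl-CoA and propionyl-CoA, which a biotin carboxylase and a cobalamin-dependent mutase carry on to succinyl-CoA. The proximal tubule of the kidney, from which clear cell carcinoma is held to arise, is rich in these mitochondrial enzymes.

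Values are normalized read counts, meaning reads per gene divided by 1 size factor per library. Between 30979773 and 64256834 reads lay on listed genes. The 769-P libraries with BCAA were deeper (64256834 and 55829324) than those without (39062721 and 40130258), so depth and condition moved together in that line, whereas the CAKI-1 libraries overlapped in depth. The kidney and carcinoma marker genes PAX8, KRT8, KRT18, VIM and CDH6 had 758 or more reads in every library. Of the same marker list, PAX2 had 751 to 1537 reads in 769-P and LRP2, the proximal tubule receptor megalin, had 4 to 9, and neither is listed in CAKI-1. Leukocyte and endothelial markers had at most 12 reads. Of the 3 fibroblast markers, the matrix gene COL1A1 had 170 to 235 reads in 769-P and 90401 to 149247 in CAKI-1. The other members were scarce, PDGFRA with at most 2 reads in 769-P and 4 in CAKI-1. DCN had at most 2 reads in 769-P and 27 to 42 in CAKI-1. CA9, a defining gene of clear cell carcinoma, is listed in neither table. Behind the 35 genes stood at least 39 reads in every 769-P library and at least 10 in every CAKI-1 library, with 100 or more in every library for 30 and 33 of them. The tables were normalized separately, so levels are compared within a line only.

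In 769-P cells the transcripts of most of these enzymes were more abundant with BCAA, and in CAKI-1 cells few were. With BCAA, 24 of the 35 genes rose and 3 fell in 769-P, against 20.3% and 18.2% of the 22391 genes tested there, 38.4% in either direction (limma on log2(value + 1), Benjamini-Hochberg adjusted p below 0.05). In CAKI-1, 5 rose and 2 fell, against 10.8% and 9.05% of 21347, 19.9% in either direction. The median log2 fold change of the 35 was 0.43 in 769-P (range -0.53 to 1.35) and -0.02 in CAKI-1 (range -0.35 to 0.57), beside medians of -0.02 and -0.01 over all genes tested. Well-expressed genes were called more often, and among genes whose mean value was 100 or more the shares were 34.1% higher and 28.9% lower in 769-P, and 18.7% and 15.5% in CAKI-1. The 35 genes together took 0.221% and 0.231% of all reads with BCAA in 769-P, against 0.195% and 0.194% without. In CAKI-1 these shares were 0.182% and 0.180% with BCAA and 0.181% and 0.171% without.

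The counts rest on having 2 libraries on each side. In 769-P, 11 and 9 of the 35 rose without the first or second library with BCAA (6.6% and 7.29% of all genes), and 6 and 8 without the first or second library without BCAA (5.24% and 6.19%), with all 24 keeping their sign. In CAKI-1 no gene of the 35, and 0% of all genes, passed in limma when any library was left out, with 3 to 7 of the 35 higher and 2 to 3 lower at an unadjusted p below 0.05. Depth was evened by thinning all libraries of a line to its shallowest, after which 20 rose and 4 fell in 769-P. The split in CAKI-1 depended on the scaling, with 1 higher and 2 lower after quantile normalization and 6 and 1 after median centring. Another test or spread moved it too, with 5 higher and 5 lower by edgeR. The counts after thinning, scaling and edgeR are given without the share of all genes called. They cannot tell a change in the 35 from a change in calling over all genes. An exact permutation test of 1 gene with 2 against 2 libraries cannot give a p below 0.333, so each p here draws on the spread shared across genes.

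**Figure D1:**
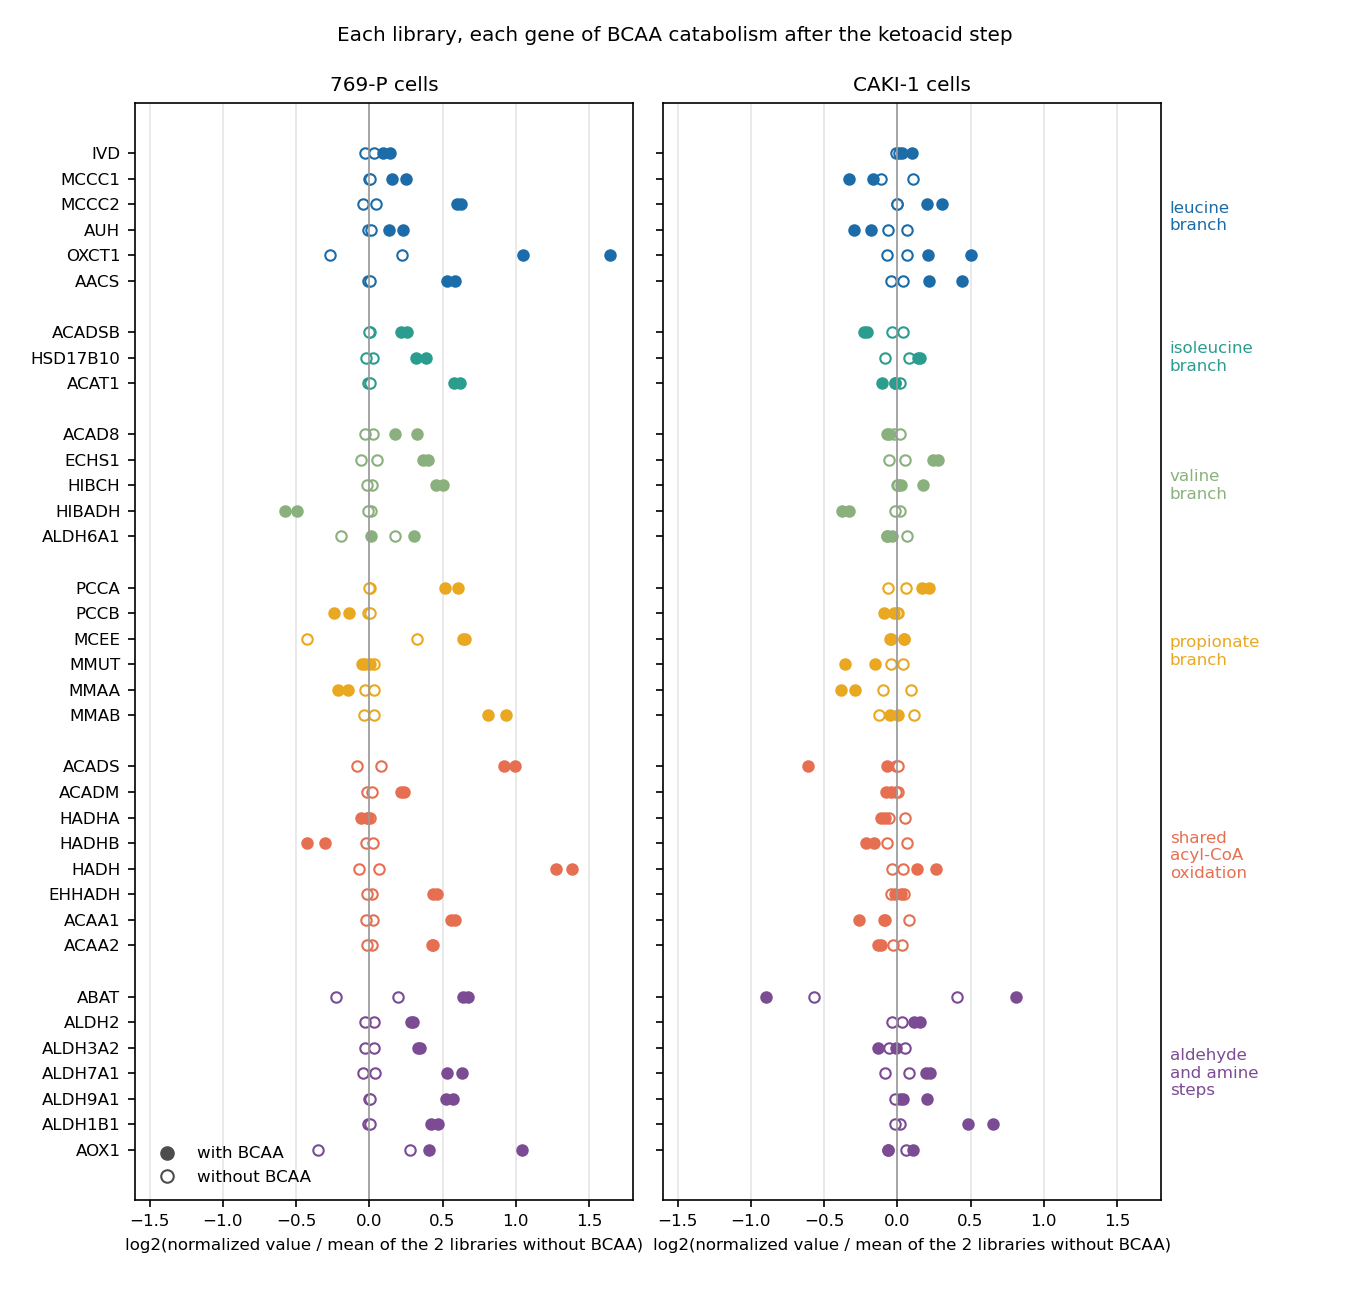
Each point is 1 library, placed at the log2 ratio of its normalized read count to the mean of the 2 libraries without BCAA of the same cell line (x axis), for each of the 35 genes by branch (y axis). Filled points are libraries with BCAA and open points are libraries without. In 769-P both filled points lie to the right of both open points for 28 genes and to the left for 5, and in CAKI-1 for 13 and 14.

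The libraries themselves show the same contrast between lines. In 769-P both libraries with BCAA lay above both without for 28 of the 35 genes, where 33.6% of all genes tested did so, and below for 5 (HIBADH, PCCB, MMAA, HADHA and HADHB; 33.5% of all genes). In CAKI-1 the counts were 13 above (28.9% of all genes) and 14 below (28.8%). The BCAA effects of the 2 lines were then compared directly, by the interaction term of a limma fit over the 8 libraries. This difference was called for 18 of the 35 genes, always with 769-P further up, where 10.9% of the 19406 genes tested in both lines were further up in 769-P and 10.1% further down, 21.1% in all. The shares in this paragraph include scarce genes. None was taken among well-expressed genes, which were called more often within lines. Across the 35 the median difference was 0.37 on the log2 scale (range -0.18 to 1.30), and 31 of the estimates were above 0.

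Call by call, most changes of 769-P did not pass in CAKI-1, while all 5 rises of CAKI-1 were also rises in 769-P. Over all genes, 4536 rose in 769-P, 2312 rose in CAKI-1 and 1656 rose in both. Most rises of CAKI-1 were thus shared there too, and most rises of 769-P were not. MCCC2, OXCT1, AACS, ECHS1 and ALDH1B1 (5 genes) rose in both lines, as did 8.53% of the genes tested in both. HIBADH (1 gene) fell in both, as did 5.83%. No gene of the 35 was called in opposite directions by limma or DESeq2, as 1.32% of all genes were in limma, while ACADSB was by edgeR, and MCCC1 and ACADSB (2 genes) were at an unadjusted p below 0.05. Another 19 rose in 769-P and did not pass in CAKI-1, and for 15 of these the difference between lines passed its own test. Shares over all genes were not computed for these counts or for the 7 genes below, and a rise in 769-P alone was common. No share in this paragraph is limited to well-expressed genes. PCCB and HADHB fell in 769-P without passing in CAKI-1, and MMAA fell in CAKI-1 without passing in 769-P. IVD, AUH, ACAD8, ALDH6A1, MMUT, HADHA and AOX1 (7 genes) passed in neither line in limma, whereas edgeR called AOX1 higher in 769-P and MMUT lower in CAKI-1.

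**Figure D2:**
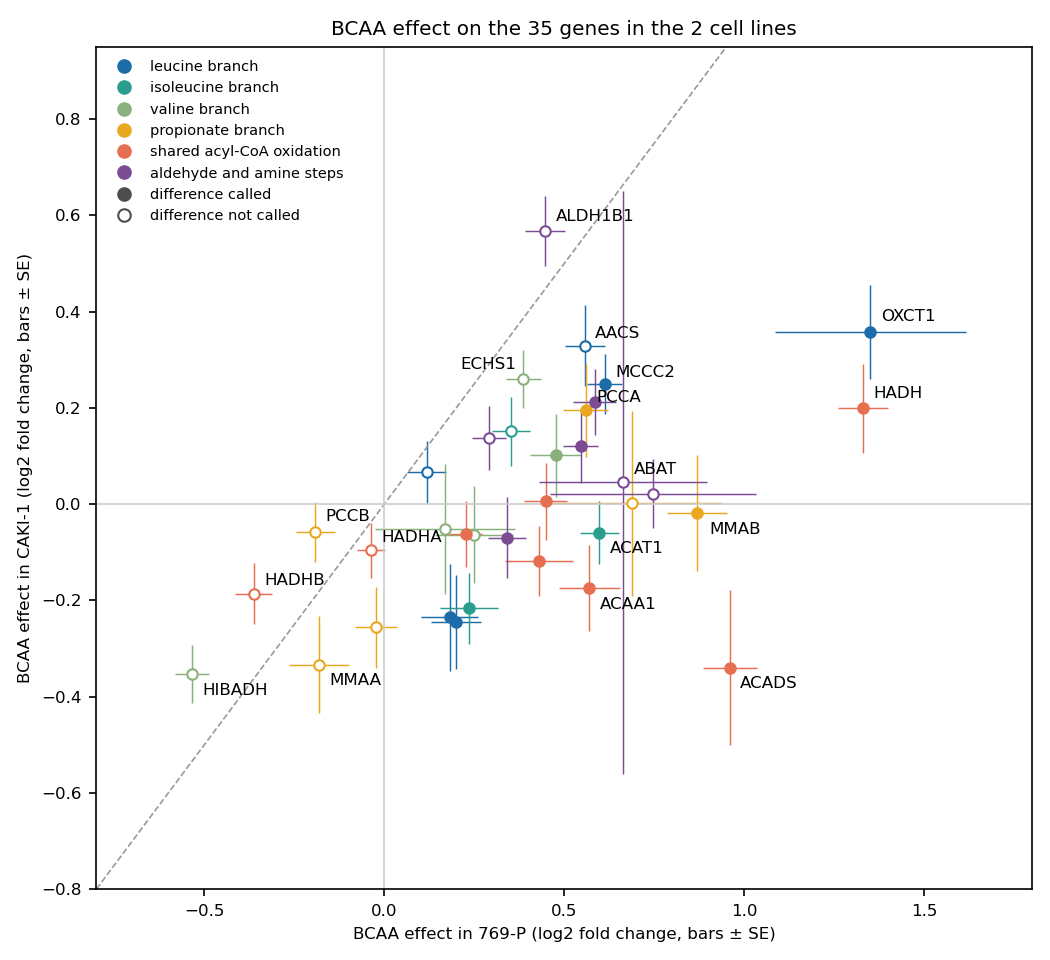
The BCAA effect of each of the 35 genes in 769-P (x axis) and in CAKI-1 (y axis) is shown as a log2 fold change, with over without BCAA, with bars of 1 standard error. Filled points are genes whose effect differed between the lines and the dashed line marks equal effects. The filled points all lie to the right of the dashed line, HADH, ACADS and OXCT1 farthest, while ALDH1B1, AACS and ECHS1 lie near it.

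The leucine branch had members that rose in both lines. With BCAA, 4 of its 6 genes rose in 769-P and 3 in CAKI-1, and none fell, with median log2 fold changes of 0.38 and 0.16. Beside this, 34.1% of well-expressed genes rose and 28.9% fell in 769-P, and 18.7% rose and 15.5% fell in CAKI-1. MCCC2, the carboxyltransferase subunit of methylcrotonyl-CoA carboxylase, measured 7297 and 7443 with BCAA against 4680.3 and 4964 without in 769-P. In CAKI-1 it measured 3952 and 3682 against 3204 and 3208. The groups did not overlap in either line. The log2 fold changes were 0.61 ± 0.05 (SE, limma adjusted p = 8.8e-07) in 769-P and 0.25 ± 0.06 (adjusted p = 0.015) in CAKI-1, and the rise was larger in 769-P by 0.36 (adjusted p = 0.0041).

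Its partner MCCC1, which carries the biotin, had smaller estimates. It measured 1256 and 1342 with BCAA against 1127 and 1134 without in 769-P, a rise of 0.20 ± 0.07 (limma adjusted p = 0.041). In CAKI-1 it measured 908 and 812 against 1097 and 943, with both libraries with BCAA below both without, at -0.24 ± 0.10 (adjusted p = 0.11). The difference between lines was 0.44 (adjusted p = 0.022). The 769-P call lies close to the threshold and was kept in 6 of 11 alternatives.

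OXCT1 and AACS act on the acetoacetate that leucine yields. OXCT1, the mitochondrial transferase that makes acetoacetyl-CoA from it, was scarce in 769-P, at 179 and 119 with BCAA against 67.1 and 47.7 without. In CAKI-1 it was abundant, at 1777 and 1454 against 1312 and 1198. It rose in both lines, by 1.35 ± 0.27 in 769-P (limma adjusted p = 0.0015; 95% confidence interval 0.77 to 1.93) and by 0.36 ± 0.10 in CAKI-1 (adjusted p = 0.024). The CAKI-1 call was kept in 7 of 11 alternatives, and its estimate was 0.21 without the first library with BCAA. The 769-P estimate was the highest of the 35 and the least precise of the large ones. Its interval holds that of HADH (1.18 to 1.48), so the order of these 2 lies within the spread. With a library left out the 769-P estimate ranged from 1.06 to 1.64, and the libraries without BCAA had 54 and 39 reads. The rise in 769-P exceeded that in CAKI-1 by 0.99 (adjusted p = 0.019). AACS, the cytosolic synthetase that activates acetoacetate for lipid synthesis, measured 3053 and 2927 against 2021 and 2041 in 769-P, and 2083 and 1784 against 1579 and 1491 in CAKI-1. Its log2 fold changes of 0.56 ± 0.06 (adjusted p = 6.4e-06) and 0.33 ± 0.08 (adjusted p = 0.017) were not shown to differ (difference 0.23, 95% confidence interval 0.00 to 0.45, adjusted p = 0.15). The AACS estimate in CAKI-1 was 0.22 without the first library with BCAA.

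IVD and AUH did not pass in either line. IVD, the isovaleryl-CoA dehydrogenase that opens the leucine branch, measured 3128 and 3015 against 2775 and 2889 in 769-P (0.12 ± 0.05, limma adjusted p = 0.11) and 2341 and 2451 against 2272 and 2302 in CAKI-1 (0.07 ± 0.06, adjusted p = 0.54). Both groups of values were separate, but by little. AUH, the methylglutaconyl-CoA hydratase, measured 878 and 936 against 792 and 806 in 769-P, and 409.6 and 378 against 485 and 443 in CAKI-1. Neither effect passed, at 0.18 ± 0.08 and -0.24 ± 0.11, though their difference of 0.42 did (adjusted p = 0.041), a call kept in 3 of 6 alternatives and in 2 of the 8 fits that left out 1 library.

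All 3 genes of the isoleucine branch rose in 769-P and none passed in CAKI-1 (limma), with medians of 0.35 and -0.06. In CAKI-1, 1 was lower at an unadjusted p below 0.05 and by edgeR, 0 by DESeq2. The shares of well-expressed genes were 34.1% higher and 28.9% lower in 769-P, and 18.7% and 15.5% in CAKI-1. ACAT1, the mitochondrial thiolase that cleaves 2-methylacetoacetyl-CoA and also serves ketone bodies, measured 3253 and 3352 with BCAA against 2170.0 and 2193 without in 769-P. In CAKI-1 its values of 2442 and 2299 with BCAA overlapped those without, 2496 and 2441. The effect was 0.60 ± 0.05 in 769-P (limma adjusted p = 2.6e-06) and -0.06 ± 0.07 in CAKI-1, a difference of 0.66 (adjusted p = 6.7e-05).

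ACADSB, the short/branched-chain dehydrogenase at the head of the branch, separated the lines by direction of its estimates. It measured 793 and 818 against 686 and 682 in 769-P, where it rose by 0.24 ± 0.08 (limma adjusted p = 0.037). In CAKI-1 it measured 1264 and 1248 against 1499.7 and 1421, at -0.22 ± 0.07 (adjusted p = 0.06), so both libraries with BCAA were below both without. The difference of 0.45 passed (adjusted p = 0.0065). HSD17B10, the hydroxyacyl-CoA dehydrogenase of the next oxidation, measured 3679 and 3862 against 3007 and 2902 in 769-P (0.35 ± 0.05, adjusted p = 0.00021) and 2523 and 2545 against 2158 and 2412 in CAKI-1 (0.15 ± 0.07, adjusted p = 0.17). Its groups did not overlap in either line, and its effect was not shown to differ between them (0.20, adjusted p = 0.14).

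In the valine branch 2 of 5 genes rose and 1 fell in 769-P, beside 34.1% and 28.9% of well-expressed genes, and 1 rose and 1 fell in CAKI-1, beside 18.7% and 15.5%. HIBADH, the dehydrogenase that oxidizes free 3-hydroxyisobutyrate, was the 1 gene of the 35 that fell in both lines. It measured 5725 and 6073 with BCAA against 8600.3 and 8481 without in 769-P, and 2837 and 2924 against 3725 and 3633 in CAKI-1. The values with BCAA lay well below those without in both. It fell by 0.53 on the log2 scale in 769-P (SE 0.05, limma adjusted p = 2.2e-06) and by 0.35 in CAKI-1 (SE 0.06, adjusted p = 0.0018). It stayed called in all 11 alternatives in each line, and the 2 effects were not shown to differ (-0.18, adjusted p = 0.096).

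HIBCH, the hydrolase that releases the substrate of HIBADH from its CoA, went the other way in 769-P. It measured 1191 and 1231 with BCAA against 881 and 859.7 without, a rise of 0.48 ± 0.07 (limma adjusted p = 0.0002). In CAKI-1 it measured 986 and 889 against 872 and 875 (0.10 ± 0.09, adjusted p = 0.48), and the difference of 0.37 between lines passed (adjusted p = 0.027). The ratio of HIBADH to HIBCH reads per exon base was 15.4 and 15.8 with BCAA against 31.3 and 31.6 without in 769-P, and 9.21 and 10.5 against 13.7 and 13.3 in CAKI-1.

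ECHS1, the short-chain hydratase shared with fatty acid oxidation, rose in both lines. It measured 8243 and 8447 against 6147 and 6629 in 769-P (0.39 ± 0.05, limma adjusted p = 5e-05) and 7090.2 and 6916 against 6082 and 5624 in CAKI-1 (0.26 ± 0.06, adjusted p = 0.01). The 95% confidence interval of the difference ran from -0.04 to 0.29. ACAD8, the isobutyryl-CoA dehydrogenase, and ALDH6A1, the methylmalonate semialdehyde dehydrogenase at the end of the branch, passed in neither line. ACAD8 measured 429.9 and 479 against 389 and 374 in 769-P (0.25 ± 0.11), and ALDH6A1 was among the scarcest of the 35, at 142 and 174 against 123 and 159. About 10.0% of the exon bases of ALDH6A1 are shared with BBOF1 on the other strand, and whether reads were counted by strand is not given in the sources used here.

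In the propionate branch the 2 subunits of propionyl-CoA carboxylase moved apart in 769-P. PCCA, the biotin-carrying subunit (chr13:100089015-100530437, plus strand, GENCODE 29 on GRCh38), measured 2149 and 2022 with BCAA against 1416 and 1410.0 without, a rise of 0.56 ± 0.06 (limma adjusted p = 1.7e-05). PCCB, the carboxyltransferase subunit (chr3:136250306-136337896, plus strand), measured 3461 and 3219.6 against 3793 and 3834, and fell by 0.19 (SE 0.05, adjusted p = 0.014). Each gene's groups were separate and on opposite sides. In CAKI-1 neither passed, with PCCA at 618 and 637 against 572 and 525 (0.19 ± 0.10) and PCCB at 2661 and 2784 against 2841 and 2825 (-0.06 ± 0.06). The PCCA effect differed between lines by 0.37 (adjusted p = 0.029), and the PCCB effect was not shown to (-0.13, adjusted p = 0.27). PCCB shares 22.1% of its exon bases with STAG1 on the other strand, and what share of its reads came from there was not tested.

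The bases just before the RefSeq start of each subunit gene are shown because the pair moved apart, in the plus strand, 5′ to 3′, from GRCh38.p14, and limited to bases that no GENCODE 29 exon covers. The PCCA stretch is chr13:100088849-100089014 and the PCCB stretch chr3:136250090-136250305. Capitals would mark any of 4 searched motifs, and neither stretch holds one.
PCCA: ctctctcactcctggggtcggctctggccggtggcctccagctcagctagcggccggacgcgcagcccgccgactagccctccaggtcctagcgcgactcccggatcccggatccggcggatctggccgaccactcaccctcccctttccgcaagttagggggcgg
PCCB: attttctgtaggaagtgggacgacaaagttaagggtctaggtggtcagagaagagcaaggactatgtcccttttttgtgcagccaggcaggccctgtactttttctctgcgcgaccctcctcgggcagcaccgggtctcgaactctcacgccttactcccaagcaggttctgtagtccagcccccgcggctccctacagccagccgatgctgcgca
The PCCA stretch (166 bases) holds 71.1% G and C and that of PCCB (216 bases) 57.4%, over unlike lengths.

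The cobalamin arm was also uneven. MMAB, which makes adenosylcobalamin for the mutase, measured 1035 and 1129.6 with BCAA against 578 and 605 without in 769-P, and rose by 0.87 ± 0.08 (limma adjusted p = 4.5e-06; 95% confidence interval 0.69 to 1.05). In CAKI-1 its values of 386 and 403 lay between those without BCAA, 368 and 434 (-0.02 ± 0.12). The difference between lines was 0.89 (adjusted p = 0.00075). MMUT, the mutase itself, passed in neither line in limma, at 2253 and 2347 against 2385 and 2288 in 769-P (-0.02 ± 0.06) and 1145 and 1318 against 1509 and 1427 in CAKI-1 (-0.26 ± 0.09, adjusted p = 0.057), where edgeR and a fit with 1 spread from all 8 libraries called it lower. MMAA, the chaperone that loads the cofactor onto the mutase, measured 576 and 541 against 659 and 752 in CAKI-1 and fell by 0.33 (SE 0.10, adjusted p = 0.039), a call kept in 5 of 11 alternatives. In 769-P it measured 707 and 673 against 765 and 799.8 (-0.18 ± 0.08, adjusted p = 0.11), and the 2 effects were not shown to differ (0.15, adjusted p = 0.47). MCEE, the epimerase, measured 143 and 145 against 116 and 68.5 in 769-P (0.69 ± 0.25, adjusted p = 0.046), a call kept in 5 of 11 alternatives, and 117 and 109.8 against 109 and 117 in CAKI-1. Its 769-P estimate was 1.06 without the first and 0.31 without the second library without BCAA.

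MMAB lies head to head with MVK, the mevalonate kinase of cholesterol synthesis, a neighbor looked up after the values of MMAB were seen. Their RefSeq starts lie 290 bases apart on chromosome 12, MMAB on the minus strand and MVK on the plus strand. MVK measured 572 and 752 with BCAA against 299 and 262 without in 769-P (1.23 ± 0.14, limma adjusted p = 1.6e-05) and 238 and 304 against 214 and 233 in CAKI-1 (0.27 ± 0.15, adjusted p = 0.27). Both genes of the pair rose with BCAA in 769-P, and neither passed in CAKI-1. The promoter window of MMAB (300 bases, 250 of them before the start) holds 5 CCAAT boxes on either strand, and 0.359% of 35116 windows hold as many or more. The closest 2 of these are shown in capitals, in the plus strand of chr12:109573695-109573724 (GRCh38.p14), where the box on the minus strand reads ATTGG.
MMAB and MVK: attgaCCAATgttcaagcctATTGGtaaag
Annotated exons of MMAB overlap those of MVK here, and 7.11% of MMAB exon bases are shared with other genes.

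Of the 6 groups, the shared acyl-CoA oxidation genes had the largest median difference between lines (0.50), beside 0.45 for the isoleucine branch. Differences of single genes in the group ran from -0.18 to 1.30, so this order lies within the spread. In 769-P 6 of 8 rose and 1 fell (median 0.44), beside 34.1% and 28.9% of well-expressed genes. In CAKI-1 none passed (limma, median -0.11), beside 18.7% higher and 15.5% lower. There 1 was lower at an unadjusted p below 0.05 and by edgeR, 0 by DESeq2. The effect was further up in 769-P for 6 of 8, beside 10.9% of genes tested in both lines. HADH, the mitochondrial dehydrogenase for medium and short hydroxyacyl-CoAs (chr4:107989714-108035175, plus strand), measured 2569 and 2769 with BCAA against 1012 and 1110.4 without in 769-P. In CAKI-1 it measured 790.0 and 722 against 675 and 641. The rise was 1.33 ± 0.07 in 769-P (limma adjusted p = 2.8e-08; 2.51-fold) and the CAKI-1 estimate 0.20 ± 0.09 (adjusted p = 0.17), a difference of 1.13 (adjusted p = 1.4e-05).

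ACADS, the short-chain acyl-CoA dehydrogenase for butyryl-CoA (chr12:120725735-120740008, plus strand), measured 1801 and 1898 with BCAA against 898 and 1004 without in 769-P. In CAKI-1 it measured 264 and 384 against 401 and 405, the first library with BCAA standing apart. The rise in 769-P was 0.96 ± 0.07 (limma adjusted p = 7.8e-07; 1.95-fold), the CAKI-1 estimate was -0.34 ± 0.16 (adjusted p = 0.18), and their difference was 1.30 (95% confidence interval 0.88 to 1.72, adjusted p = 0.00032). This was the highest estimate among the 35, but its interval overlaps that of HADH (0.88 to 1.38), and it was 1.03 without the first CAKI-1 library with BCAA, so the order of these 2 lies within the spread.

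The exon-free bases before the RefSeq starts of these 2 genes, which had the most precise of the large rises, are given in the plus strand from GRCh38.p14, HADH at chr4:107989639-107989713 and ACADS at chr12:120725576-120725734. Neither stretch holds a searched motif, which speaks only for the bases shown. The longer promoter windows described below differ, as that of HADH holds a CCAAT box outside these bases. No searched motif was found in that of ACADS.
HADH: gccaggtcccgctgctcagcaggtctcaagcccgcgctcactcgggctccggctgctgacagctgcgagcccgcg
ACADS: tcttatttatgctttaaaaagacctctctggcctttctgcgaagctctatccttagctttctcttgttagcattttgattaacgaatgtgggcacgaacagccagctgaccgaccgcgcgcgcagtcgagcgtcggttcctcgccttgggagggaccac
The HADH stretch (75 bases) holds 73.3% G and C and the ACADS stretch (159 bases) 51.6%, over unlike lengths.

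HADHA and HADHB, the subunits of the mitochondrial trifunctional protein for long chains, did not share in the rise. HADHA, with the hydratase and dehydrogenase activities, measured 17778 and 18291 against 18608 and 18412 in 769-P (-0.04 ± 0.04, 95% confidence interval -0.12 to 0.05), and measured 10355 and 10168 against 11376 and 10566 in CAKI-1 (-0.10 ± 0.06). HADHB, the thiolase subunit, measured 6073 and 6619.5 against 8029 and 8277 in 769-P and fell by 0.36 (SE 0.05, limma adjusted p = 0.00012). In CAKI-1 it measured 4500.5 and 4335 against 5269 and 4791 (-0.19 ± 0.06, adjusted p = 0.066), and the effects were not shown to differ (-0.18, adjusted p = 0.17). These 2 genes also lie head to head, on chromosome 2, with RefSeq starts 307 bases apart and HADHA on the minus strand. The overlap of their promoter windows, 194 bases, is 68.6% G and C and holds none of the 4 motifs. Of this pair 1 gene passed in 769-P, and of MMAB and MVK both did.

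The other members of the group rose in 769-P alone by the test within lines, and for each the difference between lines also passed. ACAA1, the peroxisomal thiolase, measured 790.1 and 804 against 547 and 527 in 769-P (0.57 ± 0.09, limma adjusted p = 0.00018) and 1046 and 1173 against 1326 and 1179 in CAKI-1 (-0.17 ± 0.09), a difference of 0.74 (adjusted p = 0.00078). It shares 21.2% of its exon bases with other genes, DLEC1 on the other strand among them. ACAA2, the mitochondrial thiolase, measured 586 and 583 against 438 and 429 in 769-P (0.43 ± 0.09, adjusted p = 0.0031) and 1308 and 1289 against 1439 and 1379 in CAKI-1 (-0.12 ± 0.07), a difference of 0.55 (adjusted p = 0.0027). EHHADH, the peroxisomal bifunctional enzyme, rose by 0.45 ± 0.06 in 769-P (adjusted p = 7.2e-05), from 1563 and 1523 without BCAA to 2126 and 2084 with it, and its CAKI-1 estimate was 0.01 ± 0.08. ACADM, the medium-chain dehydrogenase, rose least, at 5733 and 5799 against 4872 and 4983 (0.23 ± 0.05, adjusted p = 0.0018), and its estimate in CAKI-1 was -0.06 ± 0.07.

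**Figure D3:**
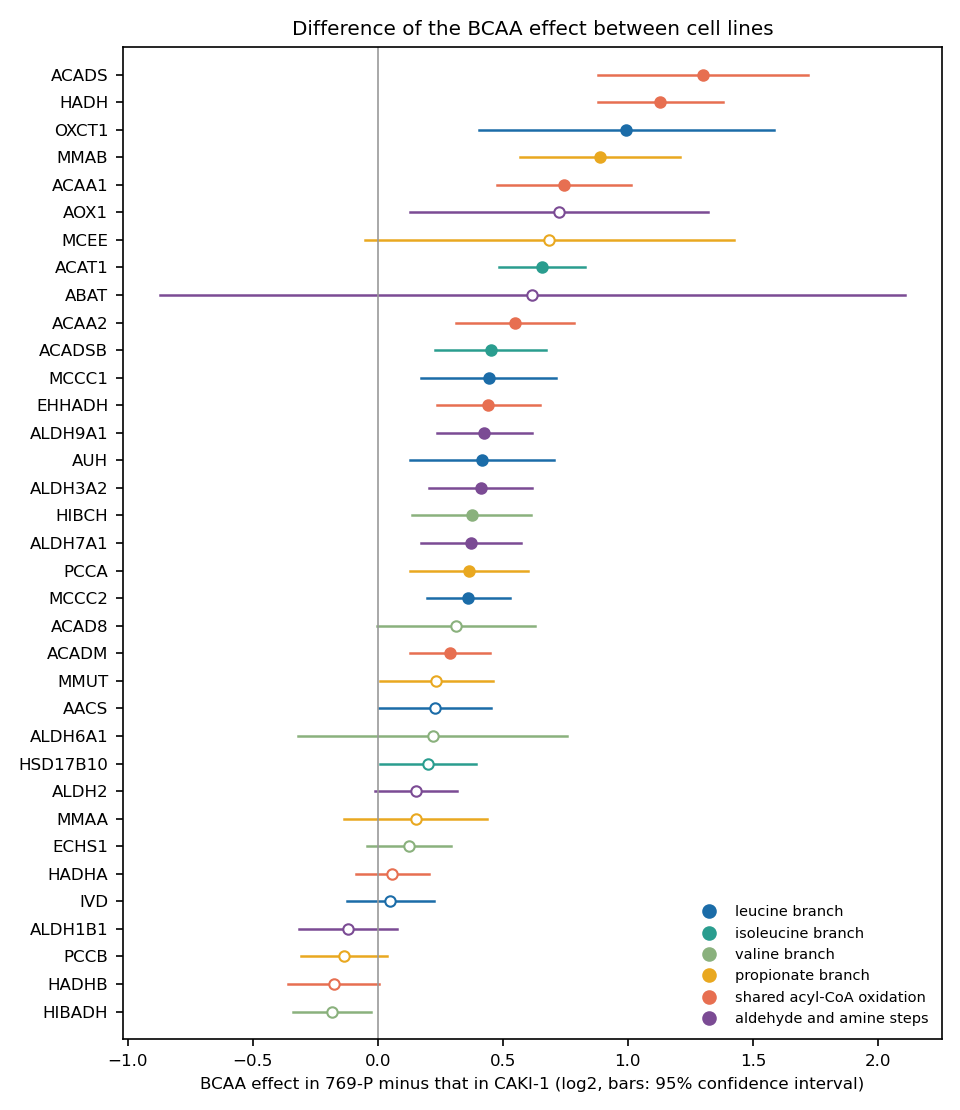
For each of the 35 genes (y axis) the point is the BCAA effect in 769-P minus that in CAKI-1 (x axis, log2 scale) with its 95% confidence interval, colored by branch and filled where the difference passed the test. The 18 filled points are all above 0, from 0.29 (ACADM) to 1.30 (ACADS), and the 4 estimates below 0 (ALDH1B1, PCCB, HADHB and HIBADH) are open.

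Among the aldehyde and amine enzymes, 6 of 7 rose in 769-P and 1 in CAKI-1, with medians of 0.55 and 0.12, and none fell. Of well-expressed genes, 34.1% rose and 28.9% fell in 769-P, and 18.7% rose and 15.5% fell in CAKI-1. ALDH1B1, a mitochondrial aldehyde dehydrogenase, was the gene of the 35 with the largest rise in CAKI-1. It measured 2916 and 2599 with BCAA against 1879 and 1838 without there (0.57 ± 0.07, limma adjusted p = 0.00031), and 2799 and 2706 against 2008 and 2028 in 769-P (0.45 ± 0.06, adjusted p = 4.1e-05). The groups were clearly separate in both lines and the effects were not shown to differ (-0.12, 95% confidence interval -0.32 to 0.08).

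ALDH7A1, which acts in lysine breakdown, and ALDH9A1, which acts in carnitine synthesis, both rose in 769-P. ALDH7A1 measured 3317 and 3559 against 2359 and 2226 (0.58 ± 0.06, limma adjusted p = 7.2e-06), and in CAKI-1 3257 and 3322 against 2998 and 2688 (0.21 ± 0.07, adjusted p = 0.051). ALDH9A1 measured 5065 and 5238 against 3526 and 3531 (0.55 ± 0.05, adjusted p = 2.5e-06), and in CAKI-1 2019.7 and 1801 against 1777 and 1733 (0.12 ± 0.08). Both genes' groups were separate in both lines, and both effects were further up in 769-P, by 0.37 (adjusted p = 0.011) and 0.43 (adjusted p = 0.0035). ALDH3A2, the fatty aldehyde dehydrogenase, rose by 0.34 ± 0.05 in 769-P (adjusted p = 0.00023) and had an estimate of -0.07 ± 0.08 in CAKI-1, a difference of 0.41 (adjusted p = 0.0074). ALDH2, the main acetaldehyde dehydrogenase, rose in 769-P from 5198 and 4991 to 6254 and 6209.9 (0.29 ± 0.05, adjusted p = 0.00032), and its estimate in CAKI-1 was 0.14 ± 0.07, a difference that did not pass (0.15, adjusted p = 0.18).

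The 2 remaining genes were scarce in 1 line. ABAT, the mitochondrial aminotransferase for GABA, measured 114 and 111 with BCAA against 60.9 and 81.9 without in 769-P (0.66 ± 0.23, limma adjusted p = 0.042), a call kept in 5 of 11 alternatives. In CAKI-1 it measured 27.2 and 8.32 against 10.5 and 20.6, which allows no statement on its direction (95% confidence interval -1.29 to 1.38). AOX1, the cytosolic aldehyde oxidase, measured 141 and 90.6 against 83.2 and 53.8 in 769-P (0.75 ± 0.29, limma adjusted p = 0.059, and called in 5 of 11 alternatives) and 4583 and 5166 against 4997 and 4595 in CAKI-1 (0.02 ± 0.07). Its groups were separate in 769-P and interleaved in CAKI-1, and the difference did not pass (0.73, adjusted p = 0.082).

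Within the libraries, the balance of subunit transcripts differed with BCAA. These ratios use reads per exon base of GENCODE 29, do not depend on the scaling of a library, and were chosen after the values of the single genes were seen, so they are given without a test. PCCA over PCCB was 0.642 and 0.649 in the 769-P libraries with BCAA against 0.386 and 0.380 without, 1.69 times as high. In CAKI-1 the same ratio was 0.240 and 0.237 against 0.208 and 0.192, 1.19 times as high. MCCC2 over MCCC1 shifted by a like amount in the 2 lines, at 4.16 and 3.97 against 2.97 and 3.14 in 769-P (1.33 times) and 3.12 and 3.25 against 2.09 and 2.44 in CAKI-1 (1.41 times). HADHB over HADHA was lower with BCAA in both, at 0.350 and 0.371 against 0.442 and 0.461 in 769-P and 0.445 and 0.437 against 0.475 and 0.465 in CAKI-1. The values with and without BCAA did not overlap for any of these pairs.

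**Figure D4:**
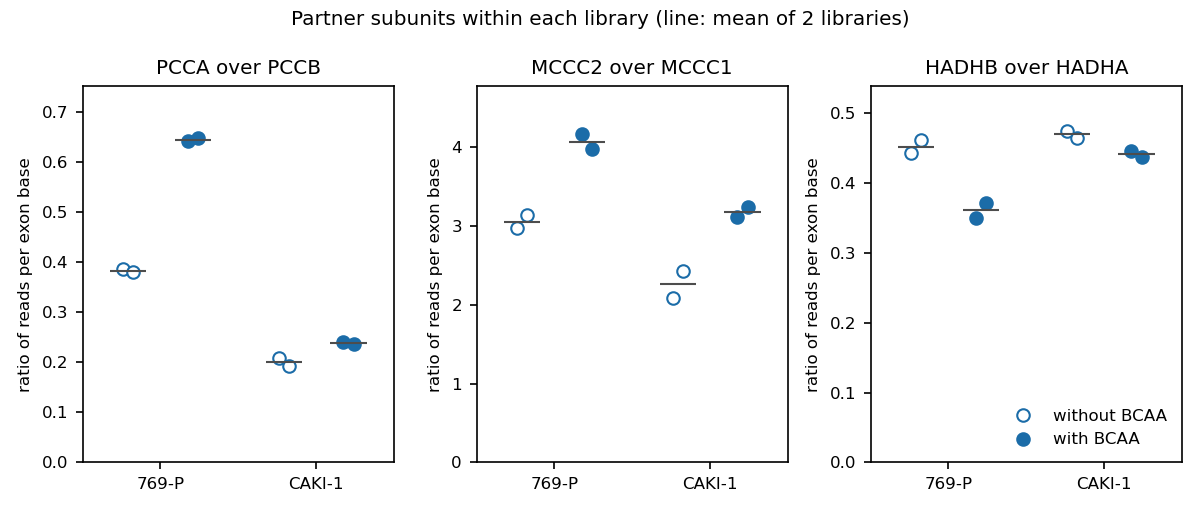
Ratios of reads per exon base (y axes, linear from 0) of 2 subunits of 1 enzyme are plotted for each library of 769-P and CAKI-1 (x axes), with open points for libraries without BCAA, filled points for libraries with it, and a line at the mean of 2. The mean of PCCA over PCCB is 0.383 without and 0.645 with BCAA in 769-P, and 0.200 and 0.238 in CAKI-1.

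By mean normalized read count per kilobase of exon, ECHS1 and HADHA were the 2 most abundant of the 35 in both lines, at 4556 and 4167 in 769-P and 3975 and 2421 in CAKI-1. Their libraries overlapped in 769-P (3802 to 5224 for ECHS1 and 4054 to 4244 for HADHA), so their order there lies within the spread, and were separate in CAKI-1 (3478 to 4385 and 2319 to 2594). HIBADH came next in 769-P (3108), overlapping HSD17B10 (3016), and HSD17B10 came next in CAKI-1 (2161). ABAT was the lowest in both, at 9.43 and 1.71. The order differed between lines for OXCT1 and AOX1, which were near the bottom in 769-P (24.6 and 16.6) and well up the order in CAKI-1 (342 and 870.3). HADH and MMAB, which rose in 769-P, were among the lowest 4 in CAKI-1 (58.5 and 63.2).

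The promoter windows of the 35 genes, from RefSeq (GRCh38.p14, 250 bases before to 50 after the start), were found for 31 of them, and ACAA1, EHHADH, HIBADH and ALDH2 had no window in the table. The CCAAT box (CCAAT, either strand) was in the windows of 14 of the 31 (45.2%) and of 39.7% of 27305 genes. The half-site AAGGTCA that orphan nuclear receptors bind was in 1 (MCEE; 4.80% of all genes), the sterol element TCACNCCAC in 1 (ALDH3A2; 1.39%), and TGATGNAA, a composite element of the amino acid response, in none (4.46%). A match to such letters is a description only, and the lack of one says only that they are not in this window.

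The enzymes and cofactors around these steps were described by lists chosen in the same way. All 3 genes of electron transfer, which takes electrons from the acyl-CoA dehydrogenases, rose in 769-P and 2 rose in CAKI-1. ETFA (0.64 ± 0.05 and 0.25 ± 0.06) and ETFDH (0.61 ± 0.09 and 0.40 ± 0.11) rose in both lines, and ETFB rose in 769-P (0.84 ± 0.09, limma adjusted p = 7.4e-06). Succinyl-CoA ligase, the enzyme after the mutase, had 3 of 3 genes higher in 769-P and 0 of 3 in CAKI-1, led by SUCLG1 at 0.90 ± 0.06 (difference 0.78, adjusted p = 6.1e-05). For short-chain carnitine transfer 2 of 3 genes rose in 769-P and 1 of 3 fell in CAKI-1. Beside these 3 lists, 34.1% of well-expressed genes rose and 28.9% fell in 769-P, and 18.7% rose and 15.5% fell in CAKI-1.

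Of 9 genes up to and including the ketoacid step, those of transport, transamination and the ketoacid dehydrogenase, 4 rose and 2 fell in 769-P, and 2 rose and 0 fell in CAKI-1. The shares of well-expressed genes were 34.1% and 28.9% in 769-P and 18.7% and 15.5% in CAKI-1, higher and lower in that order. BCAT1 and BCAT2, the cytosolic and mitochondrial aminotransferases, fell in 769-P by 2.58 (SE 0.07, limma adjusted p = 1.5e-10) and 0.72 (SE 0.08, adjusted p = 1e-05), and neither passed in CAKI-1. SLC25A44, the mitochondrial BCAA carrier, rose in both lines (0.43 ± 0.07 and 0.26 ± 0.07). BCKDHA had only 2 to 9 reads in any library, and 64.6% of its exon bases are shared with other genes.

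Of 8 cobalamin genes, 4 rose and 0 fell in 769-P, where 34.1% and 28.9% of well-expressed genes did (20.3% and 18.2% of all genes). In CAKI-1, 1 rose and 2 fell, where 18.7% and 15.5% of well-expressed genes did (10.8% and 9.05% of all genes). CD320, the cell's receptor for transcobalamin, rose in both lines (0.55 ± 0.06 and 0.56 ± 0.08), whereas TCN2, transcobalamin itself, rose in 769-P (0.58 ± 0.08) and fell in CAKI-1 (SE 0.23, log2 fold change -1.22, limma adjusted p = 0.0028). Of the 2 biotin genes, HLCS, the ligase that loads biotin onto PCCA and MCCC1, fell in 769-P by 0.72 (SE 0.07, adjusted p = 5.6e-06). Among 7 regulators of oxidative genes 1 rose and 3 fell in 769-P, and 1 rose and 1 fell in CAKI-1. With so few genes, the counts of these lists are given as a description beside the shares over all genes. PPARGC1A, a coactivator of mitochondrial genes, measured 2430.1 and 2554 with BCAA against 1431 and 1479.7 without in 769-P (0.78 ± 0.06, adjusted p = 8.3e-07) and only 11.7 and 16.6 against 19.96 and 28.3 in CAKI-1. ESRRA, a nuclear receptor it works with, fell in both lines (-0.37 ± 0.05 and -0.29 ± 0.06).

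**Figure D5:**
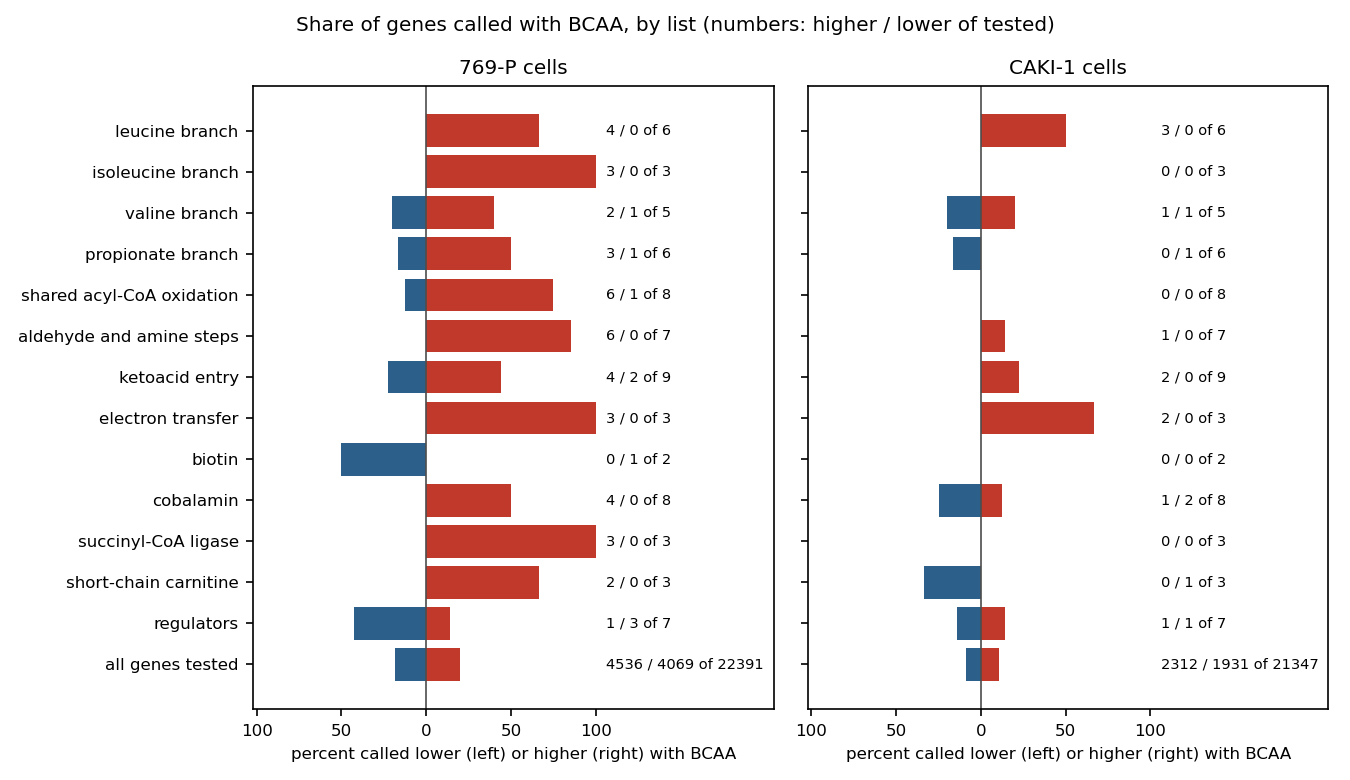
The bars give the percent of tested genes called lower (left of 0) or higher (right of 0) with BCAA in 769-P and CAKI-1 for the 6 groups of the 35 genes, for 7 lists of genes around them, and for all genes tested. Isoleucine branch, electron transfer and succinyl-CoA ligase reach 100% higher in 769-P from 3 genes each, beside 20.3% of all genes.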

How the data were processed

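RNA-seq was measured in 8 libraries, 2 for each of 2 cell lines with and without BCAA, grouped by the cell line and treatment in their labels. Per the submitters' processing notes, the tools were Trim Galore, TopHat2 2.1.0, SAMtools 1.3.1, HTSeq 0.6.0, DESeq2 and DESeq, with build hg38; the annotation and strand setting are not given in the sources used here. The authors deposited 1 table per line of a signal per gene, which is read counts divided by a size factor per library (0.777 to 1.32). All values (100%) were whole multiples of 1 read. The deposited values are not divided by gene length.

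The members and lists were chosen with earlier results of these data known. The text gives every member in at least 1 line. Symbols, positions and exon lengths came from GENCODE 29, and promoter windows from RefSeq.

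The main test was limma 3.58.1 (R 4.3.3; lmFit, then eBayes with a trend) after adding a pseudocount of 1 and taking log2. Genes averaging under 1 were dropped. It was run within each line, with Benjamini-Hochberg adjustment over all genes tested and a threshold of 0.05. Fold changes are on the log2(value + 1) scale and compare with against without BCAA. The pseudocount understates changes of scarce genes. The difference between lines was the interaction term of 1 fit over 8 libraries. Alternatives changed the pseudocount, filter, scaling, threshold, replicate block, spread, libraries and depth, or used edgeR 4.0.16 or DESeq2 1.42.0 on the recovered reads. The "11 alternatives" of the text leave out the stricter thresholds and the left-out libraries. The fits were tested on simulated data first.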

Additional observations from a re-analysis of the deposited data

Results flagged for a closer look

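The BCAA effect differed between 769-P and CAKI-1, by the interaction term of limma with Benjamini-Hochberg adjustment, for 18 of the 35 genes. In each the log2 effect was further up in 769-P. Of all 19406 genes tested in both lines, 10.9% were further up in 769-P and 10.1% further down. Among the shared acyl-CoA oxidation genes the differences were 1.30 for ACADS, 1.13 for HADH, 0.74 for ACAA1, 0.55 for ACAA2, 0.44 for EHHADH and 0.29 for ACADM. In the leucine branch they were 0.99 for OXCT1, 0.44 for MCCC1, 0.42 for AUH and 0.36 for MCCC2. In the isoleucine branch they were 0.66 for ACAT1 and 0.45 for ACADSB, and in the valine branch 0.37 for HIBCH. In the propionate branch they were 0.89 for MMAB and 0.37 for PCCA. Among the aldehyde and amine steps they were 0.43 for ALDH9A1, 0.41 for ALDH3A2 and 0.37 for ALDH7A1. The smallest adjusted p was 1.4e-05 (HADH) and the largest 0.041 (AUH). In 15 of the 18 the call was kept in all 6 settings that changed the pseudocount, scaling, replicate block or tool, and AUH, HIBCH and PCCA lost it in some. At an adjusted p below 0.01, 11 of the 35 passed, a count given without its share over all genes. With a library left out 12 to 18 passed, and all 18 kept their sign. Depth went with condition in 769-P and not in CAKI-1, and its part in these differences was not tested.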

How the results depend on the processing

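The counts of 24 genes higher and 3 lower in 769-P stayed within 1.5 times (20 to 25 and 2 to 4) under the other pseudocounts, filters, scalings, depth, spread and tools, and moved to 8 and 0 when a fold change of at least 1.5 was also asked. With a library left out they ranged from 6 to 11 higher and from 0 to 2 lower. In CAKI-1 the 5 higher genes became 1 after quantile normalization, 1 at an adjusted p below 0.01, 3 after thinning and 0 with the 1.5-fold minimum. The 2 lower genes there became 1 with no filter, 1 after median centring, 1 by DESeq2, 1 after thinning, 1 at an adjusted p below 0.01, 0 with the 1.5-fold minimum, and 5 by edgeR or with 1 spread from all 8 libraries. With a CAKI-1 library left out both counts were 0 each time. The 18 differences became 11 at an adjusted p below 0.01, and median centring added 1 in the other direction. With a replicate block 25 rose and 3 fell in 769-P, 5 rose and 1 fell in CAKI-1, and 16 differed. Deviations of same-numbered libraries correlated at -0.09 in 769-P and 0.06 in CAKI-1. With 2 libraries per condition, this cannot tell whether same-numbered libraries were paired. The causes of these shifts were not tested.

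Signs turned only in genes that had not passed, most with estimates near 0. In 769-P median centring gave 0.0176 for MMUT and 0.00260 for HADHA. In CAKI-1 it gave 0.0231 for MMAB, quantile normalization gave -0.0342 for EHHADH and -0.0369 for AOX1, edgeR gave -0.00805 for MCEE and -0.00450 for EHHADH, and thinning gave -0.13 for MCEE. With a library left out the log2 estimates in 769-P ranged from -0.0526 to 0.00719 for MMUT and from -0.0154 to 0.35 for ALDH6A1. In CAKI-1 they ranged from -0.12 to 0.0187 for ALDH6A1, from -0.0480 to 0.0507 for MCEE, from -0.14 to 0.10 for MMAB, from -0.0390 to 0.0506 for EHHADH, from -0.75 to 0.84 for ABAT and from -0.0643 to 0.11 for AOX1. The ABAT difference between lines ranged from -0.18 to 1.42. ABAT had as few as 10 reads in a CAKI-1 library, which limits any statement on it there.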
